A study of Mus musculus with 4 samples.

Results

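The miR-191 and miR-425 hairpins lie side by side on mouse chromosome 9, and each gives a miRNA from its 5′ arm (5p) and from its 3′ arm (3p). All rows of the count table named miR-191 or miR-425 were taken, which gave 4 of 942 mature miRNAs: miR-191-5p, miR-191-3p, miR-425-5p and miR-425-3p. They were measured by small RNA sequencing in the brain cortex of 4 mice of the B6C3 strain, aged 9 months. WT1 and WT2 were wild-type (WT), and APP3 and APP4 were AD mice, which carry the APPswe and PS1deltaE9 transgenes as a model of Alzheimer's disease. Per the study's methods WT1 and APP4 were siblings, as were WT2 and APP3, so each genotype has 2 mice and each sibling pair has 1 mouse of each genotype. The study asked which miRNAs differ between the genotypes.

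A primary transcript folds into hairpins that are cut into short duplexes, and 1 arm of each duplex is usually kept as the guide of an Argonaute protein while the other is mostly degraded. The guide pairs with target mRNAs through its seed, bases 2 to 8. Hairpins close together are commonly processed from 1 transcript, although the mature miRNAs can reach different levels. miR-191-5p is present in most tissues, the brain included, and both miR-191-5p and miR-425-5p are often used as reference miRNAs. Dalrd3, the gene for which the cluster is named, encodes a protein with a tRNA-binding DALR domain.

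The mature sequences show that the 4 arms carry 4 different seeds, given in capitals (RefSeq, GRCm38.p6, plus strand of chromosome 9, 5′ to 3′).
miR-191-5p: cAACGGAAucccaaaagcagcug
miR-191-3p: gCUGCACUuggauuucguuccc
miR-425-5p: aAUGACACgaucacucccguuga
miR-425-3p: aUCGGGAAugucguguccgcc
They lie at chr9:108568325-108568347, chr9:108568367-108568388, chr9:108568789-108568811 and chr9:108568830-108568850, in the order given. Among 1738 mature miRNAs of the RefSeq table, the seeds of miR-191-5p, miR-191-3p and miR-425-3p were found in 0 others. The seed of miR-425-5p was shared with 1 other miRNA, miR-489-3p, whose hairpin lies on chromosome 6.
miR-489-3p: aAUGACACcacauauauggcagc
The sequences of miR-425-5p and miR-489-3p have the same first 8 bases and 12 identical positions of 23. miR-489-3p had 36 and 29 reads in the WT mice (WT1, WT2) and 35 and 21 reads in the AD mice (APP3, APP4), and the mean level of miR-425-5p was 216-fold higher. Of the reads counted on these miRNAs of one seed, nearly all were therefore those of miR-425-5p. The RefSeq table is not complete, and 754 of the 942 counted names were found in it.

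The hairpins show how the arms are placed, with both arms in capitals.
Mir191: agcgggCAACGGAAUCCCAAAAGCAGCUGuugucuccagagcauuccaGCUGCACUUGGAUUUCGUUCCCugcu
Mir425: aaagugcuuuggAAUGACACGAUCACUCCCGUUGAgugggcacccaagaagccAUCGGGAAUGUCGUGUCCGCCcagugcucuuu
Mir191 spans chr9:108568319-108568392 (74 bases) and Mir425 spans chr9:108568777-108568861 (85 bases), with 384 bases between them. RefSeq places both inside the Dalrd3 gene, which starts 835 bases before Mir191. In the GENCODE vM21 annotation of the same build, Dalrd3 starts 1025 bases after the end of Mir425, and both hairpins lie in the single exon of the lincRNA transcript 4833445I07Rik-201. Mir191 also lies in the intron of the transcript 4833445I07Rik-202, and Mir425 lies outside that transcript. A miRNA gene of the opposite strand, Gm24083, overlaps Mir191 in GENCODE. The host transcript thus differs between the annotations, and small RNA reads do not measure it.

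**Figure D1:**
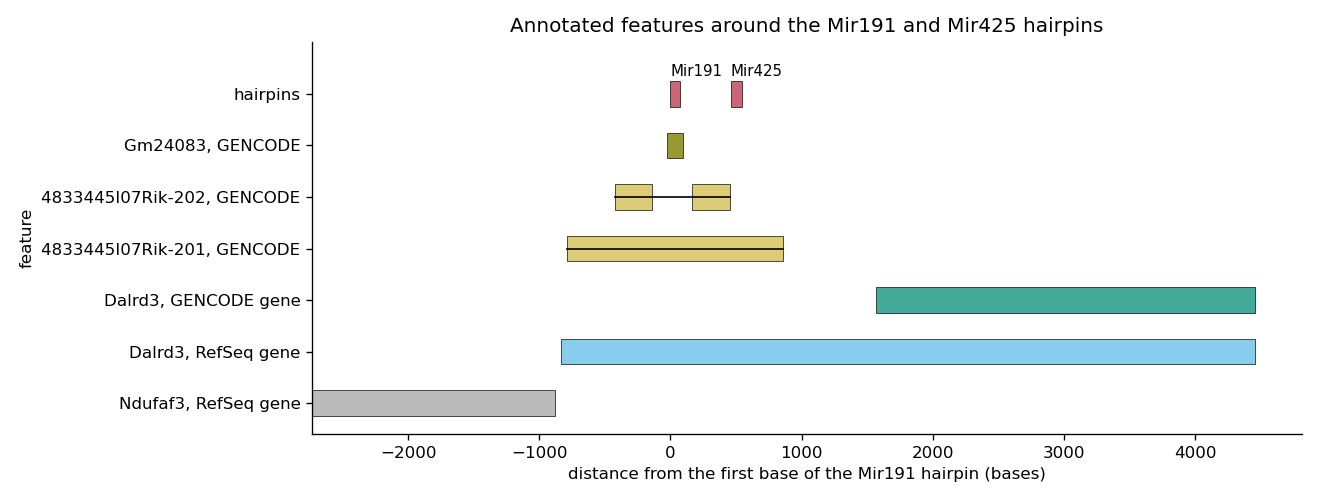
Map of annotated features around the hairpins, with the distance in bases from the first base of Mir191 on the x axis and 1 feature per row (boxes, genes or exons; lines, transcripts). Both hairpins sit inside the RefSeq Dalrd3 gene and upstream of the GENCODE Dalrd3 gene, and the RefSeq Ndufaf3 gene lies to the left of both hairpins.

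The libraries held between 19048747 (APP4) and 26085776 (WT1) miRNA reads, and levels are given as reads per 1000000 miRNA reads of the library (RPM). A level of 3 reads corresponded to 0.115 to 0.157 RPM, so all 4 arms were far above the limit of detection in every library. The brain marker miRNAs (miR-124-3p, miR-9-5p, miR-9-3p and miR-128-3p) summed to between 69577 and 78013 RPM, with all 4 detected in every library. APP4 stood apart in the epithelial miRNAs, with all 6 detected in every library and a sum of 1112 RPM against 48.2 to 67.6 RPM in the other libraries. The excess lay in 5 of them, miR-141-3p, miR-200c-3p, miR-200a-3p, miR-200b-3p and miR-429-3p, while miR-205-5p had 3.88 RPM in APP4 and 2.87 to 3.07 RPM in the others. The liver miRNA miR-122-5p had 0.940 to 4.45 RPM, and the 3 muscle miRNAs, all detected, summed to 95.2 to 122 RPM. Differences between the genotypes are therefore also given without APP4. The tissue was bulk cortex, in which fewer cells of a type and less RNA per cell cannot be told apart.

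miR-191-5p was by far the most abundant arm, and its level was lowest in APP4. Its level was 27230 RPM in WT1 and 23513 RPM in WT2, against 24257 RPM in APP3 and 18212 RPM in APP4, from between 346918 and 710310 reads. This was between 1.82% and 2.72% of all miRNA reads, and it ranked 10th of the 942 miRNAs by mean level (23303 RPM). The ranges over the 4 libraries overlapped those of its neighbours in that order, miR-27b-3p above it (25560 to 27212 RPM) and miR-143-3p below it (16628 to 24328 RPM). APP3 lay between the WT mice, so the genotypes overlapped. The means were 25371 ± 2628 RPM in the WT mice and 21235 ± 4274 RPM in the AD mice (SD, n = 2 each), a fold of 0.837, or 0.956 without APP4. An exact two-sided permutation test over the 4 libraries gave p = 0.667, and the smallest p that 2 mice against 2 allow is 0.333.

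Scaled to miRNA reads, miR-425-5p, the major arm of its hairpin, was the arm with the largest fold between the genotypes. The WT mice had 233 RPM (WT1) and 259 RPM (WT2), and the AD mice had 355 RPM (APP3) and 327 RPM (APP4), from 6073, 5723, 7540 and 6238 reads. Both AD mice lay above both WT mice, with means of 341 ± 19.1 RPM in the AD mice and 246 ± 18.7 RPM in the WT mice (SD, n = 2 each), a fold of 1.39 with p = 0.333 by the exact permutation test, the smallest the design allows. Without APP4 the fold was 1.44. Of 379 miRNAs that averaged 10 RPM or more, 28.0% had both AD mice above both WT mice, and 7.92% had both below. The order of the genotypes also held with library sizes corrected by TMM, edgeR's trimmed-mean normalization. The means were then 255 ± 14.0 RPM in the WT mice and 330 ± 36.4 RPM in the AD mice. The order also held when clean reads were used for scaling. With TMM, the edgeR log2 fold change of AD against WT mice was larger in size for miR-191-5p (-0.39) than for miR-425-5p (0.34). miR-425-5p ranked 145th, between miR-342-3p (152 to 678 RPM) and miR-652-3p (253 to 343 RPM), and its range overlapped both.

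The summed level of the 4 white blood cell miRNAs ranked the mice in the same order as miR-425-5p, although of the members only miR-150-5p did. All 4 (miR-223-3p, miR-142-3p, miR-142-5p and miR-150-5p) were detected in every library, and their sum was 434 to 555 RPM in the WT mice and 592 to 674 RPM in the AD mice. miR-150-5p made up most of it. miR-142-3p and miR-142-5p were highest in APP4, and miR-223-3p stayed between 4.52 and 6.07 RPM and overlapped between the genotypes. The part of white blood cells in the miR-425-5p values was not tested. The sum of the 4 red blood cell miRNAs, all detected in every library, overlapped between the genotypes (4001 to 4642 RPM in the WT mice and 3223 to 4060 RPM in the AD mice). miR-486-5p made up most of it. It was lower in both AD mice (3881 RPM in APP3, 3053 in APP4) than in both WT mice (3900 RPM in WT1, 4417 in WT2). Of the 379 miRNAs, 7.92% had this order of genotypes. miR-451a, miR-144-3p and miR-144-5p overlapped between the genotypes and were lowest in WT1.

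The 3p arms were read at much lower levels. For miR-191-3p the WT mice had 18.9 RPM (WT1) and 23.6 RPM (WT2), and the AD mice had 28.0 RPM (APP3) and 24.9 RPM (APP4), from 494, 520, 595 and 474 reads. The AD mice were above the WT mice by this scaling (26.4 ± 2.19 against 21.2 ± 3.26 RPM, SD, n = 2 each, exact permutation p = 0.333), and the genotypes overlapped after TMM correction and after scaling to clean reads. Without APP4 the fold of AD over WT mice was 1.32, where it was 1.24 with all mice. For miR-425-3p the WT mice had 16.3 RPM (WT1) and 19.1 RPM (WT2), and the AD mice had 18.6 RPM (APP3) and 23.6 RPM (APP4), from 424, 422, 396 and 450 reads. APP3 lay between the WT mice, and the means of 21.1 ± 3.54 and 17.7 ± 2.02 RPM gave an exact permutation p of 0.667. Their fold was 1.19 with all mice and 1.05 without APP4. The 3p arms ranked 304th and 321st. Their ranges overlapped each other and those of the miRNAs ranked beside them, which were miR-29c-5p and miR-125a-3p for miR-191-3p and let-7f-1-3p and miR-448-3p for miR-425-3p.

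**Figure D2:**
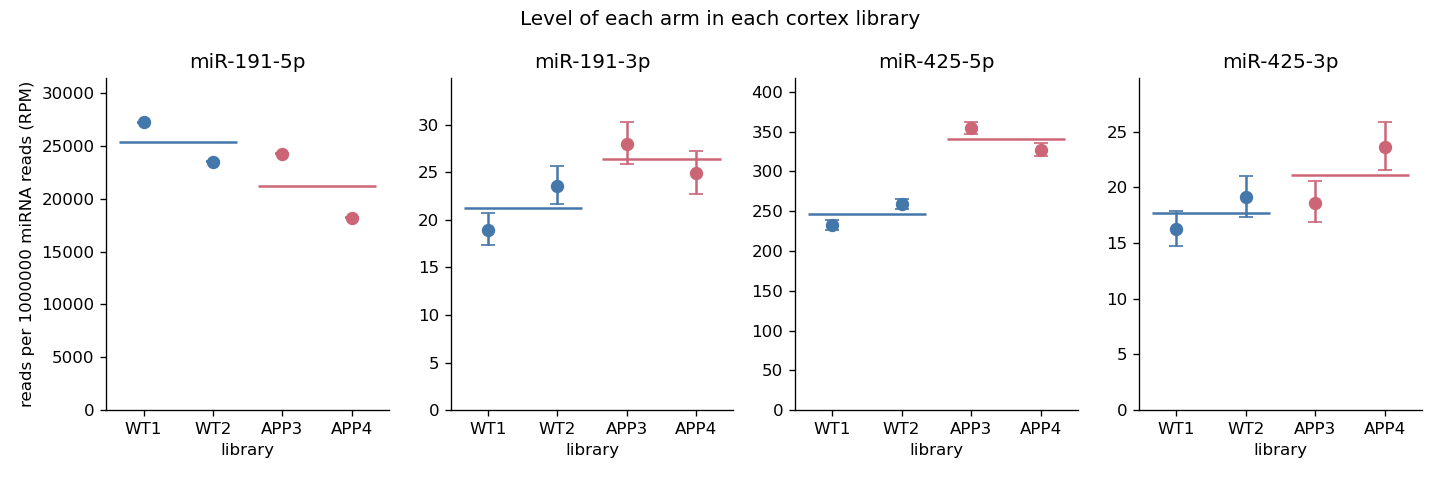
Level of each arm (y axis, RPM) in each library (x axis; blue, WT mice; red, AD mice). Points carry 95% Wilson intervals, which cover counting error only, and lines are the mean of each genotype; miR-425-5p runs from 233 to 259 RPM in the WT mice and from 327 to 355 RPM in the AD mice, whereas miR-191-5p overlaps between the genotypes.

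All 4 arms varied to a like degree between the mice. The highest library exceeded the lowest 1.495-fold for miR-191-5p, 1.48-fold for miR-191-3p, 1.52-fold for miR-425-5p and 1.45-fold for miR-425-3p. On the log2 scale these ranges were 0.58, 0.56, 0.61 and 0.54, where the median over the 379 miRNAs with at least 10 RPM was 0.48. Of those miRNAs, between 112 and 147 had a wider range than a given arm, so the cluster sat above the middle of the distribution. Since miR-191-5p and miR-425-5p serve as reference miRNAs, they were set beside 11 others used in the same way. By log2 range they came 9th and 10th of the 13, after miR-93-5p with 0.26, miR-26a-5p with 0.29 and miR-16-5p with 0.33. miR-103-3p (0.62), miR-423-3p (0.74) and miR-423-5p (0.76) varied more.

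The sibling pairs were then compared library by library with two-sided Fisher's exact tests on the reads, and a miRNA was called where the Benjamini-Hochberg FDR was below 0.05 and the change reached 1.5-fold. Such a test compares 2 libraries and not the genotypes, and the SE of its log2 fold change covers counting error only. By this rule 0 of the 4 arms were called in APP4 against WT1 and 0 in APP3 against WT2, where 11.6% of 899 and 6.81% of 896 miRNAs with a read were called. The same held between mice of one genotype, with 0 arms called in WT2 against WT1 and 0 in APP4 against APP3, where the background was 10.1% of 879 and 8.05% of 907. At the FDR alone, which the depth makes easy to pass, 4, 3, 4 and 3 arms passed in these 4 comparisons, with 40.3%, 36.0%, 40.5% and 35.2% of all miRNAs.

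miR-425-5p was higher in the AD mouse of both sibling pairs by similar amounts. The log2 fold change was 0.49 (SE 0.03, FDR 1.26e-78 by Fisher's exact test) in APP4 against WT1 and 0.45 (SE 0.03, FDR 5.66e-71 by Fisher's exact test) in APP3 against WT2. Between mice of one genotype it was 0.15 in WT2 against WT1 and -0.11 in APP4 against APP3, so the difference between siblings exceeded that between the mice of either genotype. TMM shifts every log2 fold change of a comparison alike, by -0.18 in APP4 against WT1, -0.03 in APP3 against WT2, -0.04 in WT2 against WT1 and -0.11 in APP4 against APP3. With it miR-425-5p stood at 0.31 and 0.42 in the sibling pairs, and at 0.11 and -0.23 between mice of one genotype.

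miR-191-5p was lower in the AD mouse of the first sibling pair and changed little in the second. It was lower in APP4 than in WT1 (log2 fold change -0.58, SE 0.003, with an FDR too small to be represented), and the inverse fold of 1.495 lay just under the limit of 1.5-fold. With TMM library sizes the value was -0.76, which passed the limit, as did 9.12% of all 899 miRNAs by the same rule. In APP3 against WT2 the log2 fold change was 0.04 (SE 0.0028), and 0.02 with TMM. Mice of one genotype differed by -0.21 (WT2 against WT1) and -0.41 (APP4 against APP3), so the difference in the second pair was smaller than those within a genotype. The values with APP4 include the library that stood apart, and those without it are the second pair and the WT mice.

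In the first pair the difference of miR-425-3p exceeded those between mice of one genotype with all 3 scalings (miRNA reads, TMM and clean reads), that of miR-191-3p did so only when scaled to miRNA reads, and in the second pair neither did. In APP4 against WT1, the log2 fold change of miR-191-3p was 0.39 (SE 0.09) and that of miR-425-3p was 0.54 (SE 0.10). In APP3 against WT2 it was 0.25 (SE 0.09) for miR-191-3p and -0.04 (SE 0.10, FDR 0.867 by Fisher's exact test) for miR-425-3p. The WT mice differed by 0.31 and 0.23, and the AD mice by -0.17 and 0.34, for miR-191-3p and miR-425-3p. With TMM, miR-191-3p stood at 0.21 in APP4 against WT1, below the 0.27 between the WT mice and smaller than the -0.28 between the AD mice. With clean reads it stood at 0.393, below the 0.402 between the WT mice. As a scale for these values, the median log2 fold change over the 379 miRNAs with at least 10 RPM was 0.18 in APP4 against WT1 and 0.04 in APP3 against WT2.

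**Figure D3:**
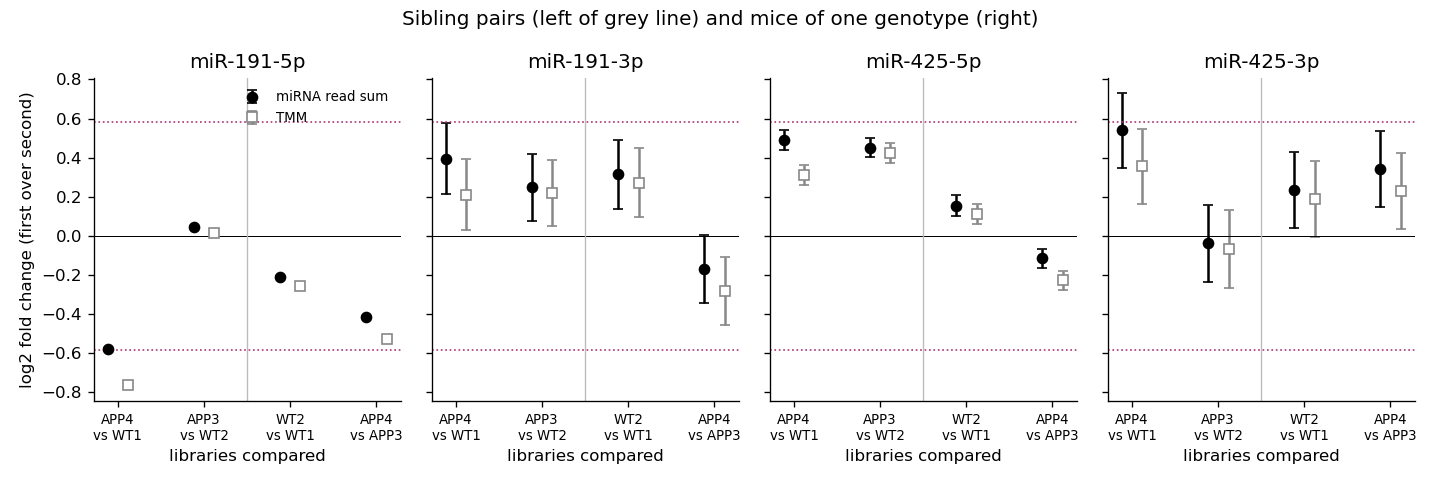
Log2 fold change of each arm (y axis) in the sibling pairs and between mice of one genotype (x axis), scaled to miRNA reads (black) or with TMM (grey). Bars are 95% intervals of counting error and dotted lines mark 1.5-fold; miR-425-5p is at 0.49 and 0.45 in the sibling pairs, and miR-191-5p at -0.58 and 0.04.

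Over the 4 mice, edgeR's quasi-likelihood test found 0 of the 4 arms with an adjusted p under 0.05, and 0 with an unadjusted p under 0.05. Of the 623 miRNAs tested, 0.00% passed at the adjusted p and 5.78% at the unadjusted p. The log2 fold change of AD against WT mice was 0.34 (SE 0.20, adjusted p = 0.929) for miR-425-5p and -0.39 (SE 0.25, adjusted p = 0.929) for miR-191-5p by edgeR. It was 0.19 (SE 0.22) for miR-191-3p and 0.12 (SE 0.21) for miR-425-3p, with adjusted p-values of 0.958 and 0.972 by edgeR. DESeq2 also found 0 of the 4. Without APP4 the edgeR values were 0.45 for miR-425-5p, -0.15 for miR-191-5p, 0.32 for miR-191-3p and -0.0042 for miR-425-3p, and the adjusted p was 0.996 for each by edgeR. Without APP3, miR-191-5p reached -0.69, with an adjusted p of 0.519 by edgeR. Without APP3 the value of miR-425-5p was 0.21, that of miR-191-3p 0.03 and that of miR-425-3p 0.22, with an adjusted p of 0.993 for each by edgeR. Without WT1 miR-191-3p was at 0.08, miR-425-3p at 0.05 and miR-191-5p at -0.23, and without WT2 miR-191-3p was at 0.33 and miR-425-3p at 0.22. With the sibling pair as a block, edgeR gave 0.34 for miR-425-5p and -0.40 for miR-191-5p, and again 0 of the 4 arms passed.

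The ratio of miR-191-5p to miR-425-5p is taken within a library and does not depend on the scaling. In the WT mice it was 117 (WT1, 95% interval 114 to 120) and 90.7 (WT2, 88.4 to 93.1), and in the AD mice it was 68.4 (APP3, 66.9 to 70.0) and 55.6 (APP4, 54.2 to 57.0). Both AD mice lay below both WT mice, and none of the intervals of counting error overlapped. The log2 ratio was 5.95 ± 0.21 in the AD mice and 6.69 ± 0.26 in the WT mice (SD, n = 2 each), a difference of -0.74, or 1.67-fold, with an exact two-sided permutation p of 0.333. Within the sibling pairs it was lower in the AD mouse by unequal amounts, with -1.07 (SE 0.03) in APP4 against WT1 and -0.41 (SE 0.03) in APP3 against WT2. The WT mice differed by -0.37 and the AD mice by -0.30, so the second pair differed little more than mice of one genotype. Without APP4 the genotype difference was -0.59, and without WT1 it was -0.56.

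The ratio of the minor arms did not share this order. The ratio of miR-191-3p to miR-425-3p was 1.17 (WT1) and 1.23 (WT2) in the WT mice and 1.503 (APP3) and 1.05 (APP4) in the AD mice. The AD mice lay on both sides of the WT mice, and the difference in log2 ratio was 0.07 with an exact permutation p of 1. Without APP4 it was 0.33, without APP3 it turned to -0.19, and without WT1 or WT2 it was 0.03 or 0.11.

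**Figure D4:**
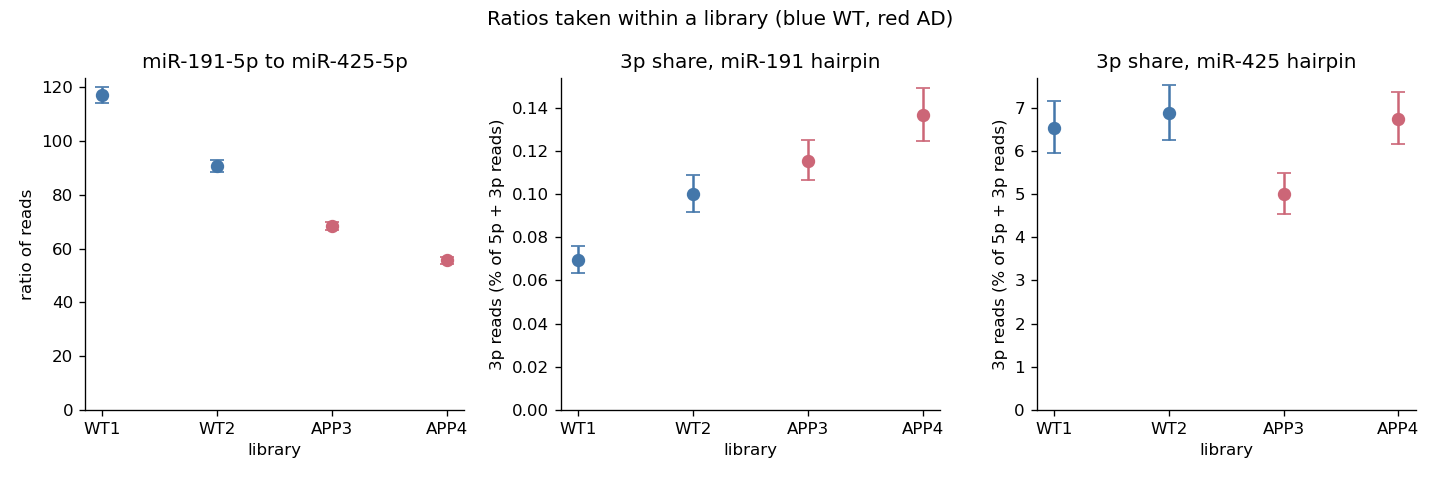
Ratio of miR-191-5p to miR-425-5p reads (left) and the 3p share of the reads of each hairpin (middle and right, %) in each library (x axis; blue, WT mice; red, AD mice), with 95% intervals of counting error. The ratio is 117 and 90.7 in the WT mice against 68.4 and 55.6 in the AD mice, and in the miR-425 hairpin APP3 lies below the other libraries.

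As a background, the same ratio was taken for hairpins at most 1000 bases apart. For each hairpin 1 arm with at least 50 RPM was used, meant as the leading arm. This gave 16 pairs of 28 miRNAs, some of them in more than 1 pair. The genotypes did not overlap in 25.0% of the pairs, that of miR-191-5p and miR-425-5p included, so a ratio without overlap was not rare among neighbours. The pairs without overlap also included miR-27a-3p to miR-24-2-5p, in which miR-24-3p (mean 1701 RPM) was not the arm used. The size of the difference, 0.74, came second of the 16, and the median over the other 15 pairs was 0.18. Only miR-200a-3p to miR-200b-3p had a larger one (0.83), with overlapping genotypes, and both are among the epithelial miRNAs that were high in APP4. miR-25-3p and miR-93-5p, which share the Mcm7 intronic cluster with miR-106b, differed by 0.04. Without APP4 the difference of miR-191-5p and miR-425-5p was 0.59 and came 1st of the 16, against a median of 0.18 over the others. It came 3rd with 0.56 without WT1, 1st with 0.92 without WT2 and 2nd with 0.89 without APP3.

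**Figure D5:**
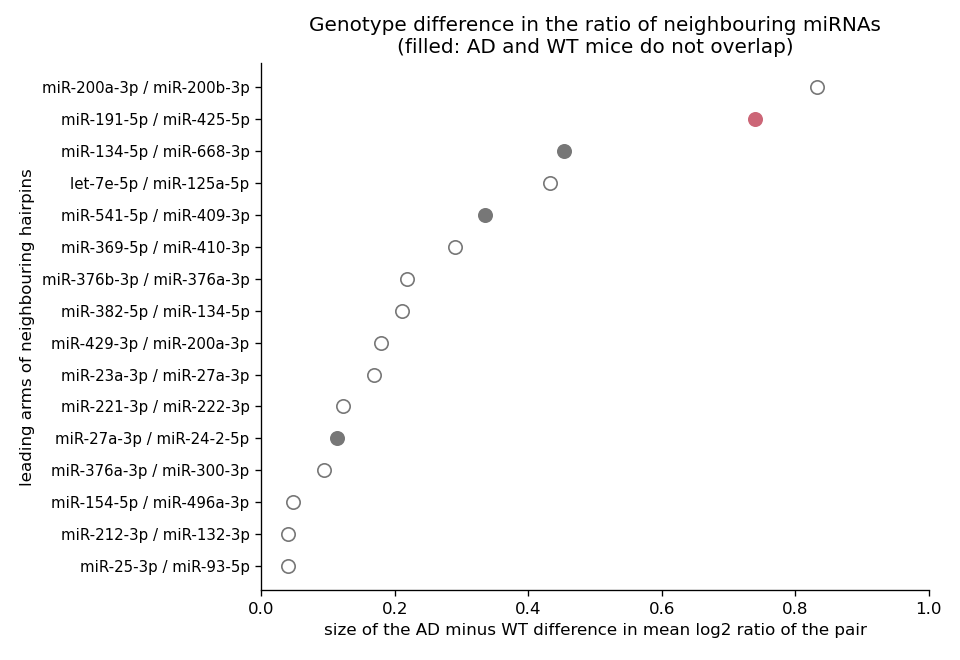
Size of the genotype difference in mean log2 ratio (x axis) for 16 pairs of miRNAs from neighbouring hairpins (y axis), with filled points where AD and WT mice did not overlap and the miR-191-5p to miR-425-5p pair in red. That pair is at 0.74, second after miR-200a-3p to miR-200b-3p at 0.83.

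The arms of the Mcm7 cluster, another set of clustered hairpins, were counted in the same comparisons. Of its 6 arms, 3 were called higher and 0 lower in APP4 against WT1, with a median log2 fold change of 0.43, where 11.6% of all miRNAs were called, and 0 were called in APP3 against WT2, with a median of 0.15. The 3 called were miR-106b-5p, miR-93-3p and miR-25-5p, with mean levels of 27.7, 4.79 and 2.14 RPM. The most abundant arms, miR-25-3p (628 RPM) and miR-93-5p (354 RPM), were not called, with -0.19 and 0.24 in APP4 against WT1. Of the 11 reference miRNAs other than miR-191-5p and miR-425-5p, 2 were called higher in APP4 against WT1 and 0 in APP3 against WT2, with medians of 0.24 and 0.06. With TMM library sizes 0 arms of the Mcm7 cluster and 0 of the 11 reference miRNAs were called in APP4 against WT1, with medians of 0.25 and 0.06. In both pairs 0 of the 4 arms of miR-191 and miR-425 were called when scaled to miRNA reads, and with TMM 1, miR-191-5p, was called lower in APP4 against WT1.

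The use of the arms was uneven in the miR-191 hairpin. Of the hairpin's reads, its 3p arm took 0.0695% (WT1, 95% Wilson interval 0.0636 to 0.0759%) and 0.100% (WT2, 0.0918 to 0.109%) in the WT mice. In the AD mice it took 0.115% (APP3, 0.106 to 0.125%) and 0.136% (APP4, 0.125 to 0.149%). The AD mice were both above the WT mice, although the intervals of WT2 and APP3 overlapped. How many other hairpins had such an order is not given here, so it is not read as particular to this hairpin. The share of the 5p arm differed by -0.041 percentage points between AD and WT mice, with an exact permutation p of 0.333. Without APP4 it differed by -0.030, without WT1 by -0.026, without WT2 by -0.056 and without APP3 by -0.052 percentage points. The mean excess of 5p over 3p was 977-fold. Of 84 hairpins with both arms at 10 RPM or more, only 1 was more uneven. Their median excess of the major arm was 5.79-fold. Hairpins with a minor arm under 10 RPM were left out, which removes very uneven ones, so this place holds only among the 84.

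A larger share of the reads of the miR-425 hairpin came from its minor arm. miR-425-5p took 93.5% (WT1, 95% Wilson interval 92.8 to 94.0%) and 93.1% (WT2, 92.5 to 93.7%) of the hairpin's reads in the WT mice. In the AD mice it took 95.01% (APP3, 94.5 to 95.5%) and 93.3% (APP4, 92.6 to 93.8%). Only the interval of APP3 lay apart from the others. The difference of AD from WT mice was 0.838 percentage points (exact permutation p = 0.667), without APP3 it was -0.032, and without APP4 it was 1.71. The mean excess of 5p over 3p was 15.0-fold, and 29 of the 84 hairpins were more uneven, a place that also holds only among these 84. The reads of the major arm were 13.6 to 19.04 times those of the minor arm, and the arms did not rank the mice alike, since APP3 had the highest level of miR-425-5p and APP4 that of miR-425-3p.

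The miRNAs with the most similar profile over the 4 libraries were found by the root mean square distance of centred log2 RPM among 250 other miRNAs with at least 50 RPM. miR-151-3p was nearest to miR-191-5p (distance 0.062), followed by miR-148a-3p (0.10) and miR-143-3p (0.11), where the median was 0.32. The WT mice had 9738 RPM (WT1) and 7812 RPM (WT2) of miR-151-3p and the AD mice 9012 RPM (APP3) and 6660 RPM (APP4), so WT1 was highest and APP4 lowest, as for miR-191-5p. miR-431-5p was nearest to miR-425-5p (0.025), followed by miR-149-5p (0.054) and miR-666-3p (0.068), where the median was 0.26. The WT mice had 182 RPM (WT1) and 212 RPM (WT2) of miR-431-5p and the AD mice 283 RPM (APP3) and 257 RPM (APP4), with both AD mice above both WT mice. The distance between miR-191-5p and miR-425-5p was 0.41, with miR-425-5p the 206th nearest to miR-191-5p and miR-191-5p the 221st nearest to miR-425-5p among the 250, although their hairpins are neighbours. The nearest miRNAs were picked for their likeness over these same libraries, so the shared order of the mice follows from the choice. With 4 libraries such distances describe these mice and were not tested.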

How the data were processed

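The authors sequenced small RNA of the cortex on an Illumina HiSeq, trimmed adapters, kept reads of 18 to 35 bases that passed quality filters, and matched them to miRBase 19 with Bowtie and CLC genomics workbench. The methods state up to 2 mismatches for the small RNA databases and also no mismatch for miRBase, so the number allowed here is not settled. Reads of a mature miRNA and of its variants were deposited together as unnormalized counts. A second set of columns, headed TPM by the authors, holds these counts as RPM of all clean reads. It was used to derive the clean reads per library (22851004 to 31265701) and to order the genotypes after scaling to clean reads. For the build, the submitters' processing notes name mm9 (with CASAVA 1.8) and the study's methods name GRCm38. The labels name Trizol for the RNA, and the methods name a column kit.

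RPM here are counts per 1000000 miRNA reads. Fisher's exact tests (scipy 1.17.1) were run on each pair of libraries over all miRNAs with a read, with 0.5 read added for log2 fold changes. The genotypes were tested over 4 mice with the quasi-likelihood test of edgeR 4.0.16 under R 4.3.3, after filterByExpr and TMM, and with DESeq2 1.42.0 as an alternative, using the separate mice as replicates. Single values were tested by exact permutation of the 4 libraries, and shares carry 95% Wilson intervals. Intervals and the level of 3 reads cover counting error only, since PCR copies are not independent. The 6 pairs of libraries differed by far more than sampling noise (lowest chi-square per degree of freedom, 574).

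The members and lists were chosen with earlier results of these data known. Named miRNAs were the 4 arms, the 3 nearest profiles of each major arm, 13 reference miRNAs, the arms of the Mcm7 cluster, miRNAs that share a seed, neighbours in rank and marker lists of brain, blood, liver, muscle and epithelium. The pairs of neighbouring hairpins, the FDR with no fold limit, the mice left out of folds, of the 3p ratio and of the neighbouring pairs, and TMM for the reference and Mcm7 lists were added after the data were seen. Sequences and hairpin positions come from RefSeq (GRCm38.p6) and transcripts from GENCODE vM21. Alternatives were TMM, clean-read or rounded scaling, a minimum of 10 RPM, a 2-fold limit, other normalizations and filters, a sibling block, summed reads, both arms summed, and each mouse left out. The Fisher and edgeR scripts were tested on simulated data. The sibling pairs are stated in the study's methods, and mice of a pair deviated together with r = 0.235 across 252 miRNAs. The authors' mapping could have assigned variant reads of near-identical miRNAs to either, and 1 hairpin was found for each of the 4 arms.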

Additional observations from a re-analysis of the deposited data

Results flagged for a closer look

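miR-191-5p, the most abundant arm, had log2 fold changes of opposite sign in the sibling pairs. The value was -0.58 in APP4 against WT1, which includes the library that stood apart, and 0.045 in APP3 against WT2. The second was smaller than the differences between mice of one genotype (-0.21 in WT2 against WT1 and -0.41 in APP4 against APP3). Each pair holds 1 mouse of each genotype, so whether the pairs differ was not tested.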

How the results depend on the processing

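Each genotype had 2 mice, so an exact permutation test could not reach 0.05, and a Fisher test at this depth passes small differences between libraries. With TMM library sizes, 1 arm was called in APP4 against WT1, miR-191-5p at -0.76, in place of 0, among 82 miRNAs called in place of 104. With no fold limit, 4 arms passed in APP4 against WT1, 3 in APP3 against WT2, 4 in WT2 against WT1 and 3 in APP4 against APP3. When 1 mouse at a time was left out, the edgeR log2 fold change of miR-425-3p ran from -0.0042 (without APP4) to 0.22, and the difference in the 5p share of miR-425 ran from -0.032 (without APP3) to 1.71 percentage points. That of miR-191 ran from -0.056 (without WT2) to -0.026 (without WT1). The log2 ratio of miR-191-5p to miR-425-5p ran from -0.92 to -0.56. The difference in log2 ratio of the 3p arms, 0.07 with all mice, turned to -0.19 without APP3. These 3 reversals came with fewer mice, and the cause was not tested. Of 165 alternative values, 157 kept their direction and their side of the threshold, which for a Fisher test is the FDR and the fold limit together. Some of them could not change, so this count does not measure robustness. The 2-fold limit and the minimum of 10 RPM leave each log2 fold change as it was. An arm not called at 1.5-fold cannot be called at 2-fold. At the FDR alone, of 16 arm values, TMM lost 3 and gained 1, clean reads gained 1 and rounded scaling lost 8. The adjusted p of the 4 arms ran from 0.519 to 0.997 over edgeR and DESeq2 alternatives, and the sibling block changed no call among them. Over all miRNAs, the block gave 2 calls by edgeR where the fit without it gave 0, and leaving out WT1, APP3 or APP4 gave 3, 21 and 5. The Fisher calls over all miRNAs in APP4 against WT1, APP3 against WT2, WT2 against WT1 and APP4 against APP3 were 104, 61, 89 and 73. They were 33, 23, 21 and 24 with rounded scaling to 1000000 reads, 53, 30, 40 and 40 at 10 RPM or more, and 50, 23, 38 and 38 with a 2-fold limit.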
